A study of Chlamydomonas reinhardtii with 6 samples.

Results

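The genes described here are 8 genes of carotenoid and xanthophyll synthesis in the unicellular green alga Chlamydomonas reinhardtii, 8 of the 17736 gene models in the deposited table. They were chosen by identifier, with earlier results of these data known. They are called DXS1, PSY1, PDS1, ZDS1, LCYB1, LCYE1, CHYB1 and ZEP1 after the names under which the identifiers were selected. Neither the table nor the RefSeq gene table pairs the identifiers with names. The roles given below are those known for enzymes of these names. RNA was sequenced from 3 libraries of a knockout of CMD1 (cmd1 KO) and 3 of wild type (WT), both in strain CC125. The study asked how loss of CMD1, a relative of the TET dioxygenases that oxidise methylated cytosine in animal DNA, altered gene expression. Cells of both genotypes were grown at 25 °C in an acetate medium under 20 µmol photons per m2 per s, then placed in a high salt medium under light of 300 µE. The labels and files used here give neither the way the knockout was made, nor the number of clones it stands for, nor the length of the exposure. The genotype labels were not checked by the level of CMD1, which was not analysed here.

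Carotenoids are made in the chloroplast from isoprenoid precursors of the methylerythritol phosphate pathway. Phytoene is desaturated in steps to lycopene, whose ends are then closed into rings, and the kind of ring decides between the branch that leads to lutein and the branch that leads to zeaxanthin and violaxanthin. In strong light, algae and plants shift the balance between violaxanthin and zeaxanthin towards zeaxanthin, which takes part in the harmless loss of absorbed light energy and protects membranes from oxidation.

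The 2 genotypes were sequenced to like depth, but the libraries did not group by genotype alone. Counts summed to between 38875025 and 47869886 in the cmd1 KO libraries and between 39072635 and 45087656 in the WT libraries. The median count per gene was 79, 60 and 211 in cmd1 KO replicates 1 to 3, against 263, 250 and 307 in WT replicates 1, 2 and 3. Deposited levels are in FPKM, a read density per length of gene model and per library total, which corrects for gene length and those alone. The trimmed mean of M-values (TMM) factors, which correct for counts taken up by a few very abundant genes, were 0.515, 0.489 and 1.38 in cmd1 KO and 1.31, 1.29 and 1.70 in WT. Library totals alone placed the median tested gene at a log2 ratio of -1.40, -1.48 and -0.32 (cmd1 KO over WT, pairs 1, 2 and 3), and TMM at -0.06, -0.09 and -0.01. Replicate 3 of both genotypes stood apart from replicates 1 and 2, and is given separately throughout. In RNA from whole cultures, fewer cells in a given state and less RNA per cell cannot be told apart.

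In FPKM, the carotenoid genes summed to less in cmd1 KO than in WT in replicates 1 and 2, and the sums of replicate 3 were closer. The 8 genes summed to 34.6, 34.8 and 168 FPKM in cmd1 KO replicates 1 to 3, against 180, 176 and 188 FPKM in WT replicates 1, 2 and 3. Divided by the TMM factors, which take out the shift of the median gene, the sums were 67.1, 71.2 and 122 in cmd1 KO, against 138, 136 and 111 in WT. On both scales cmd1 KO replicates 1 and 2 had the lowest sums of the 6 libraries. Of the 8 genes, 7 reached an average of 1 FPKM or more across the libraries and entered the test. The remaining one, CHYB1, averaged 0.506 FPKM.

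**Figure D1:**
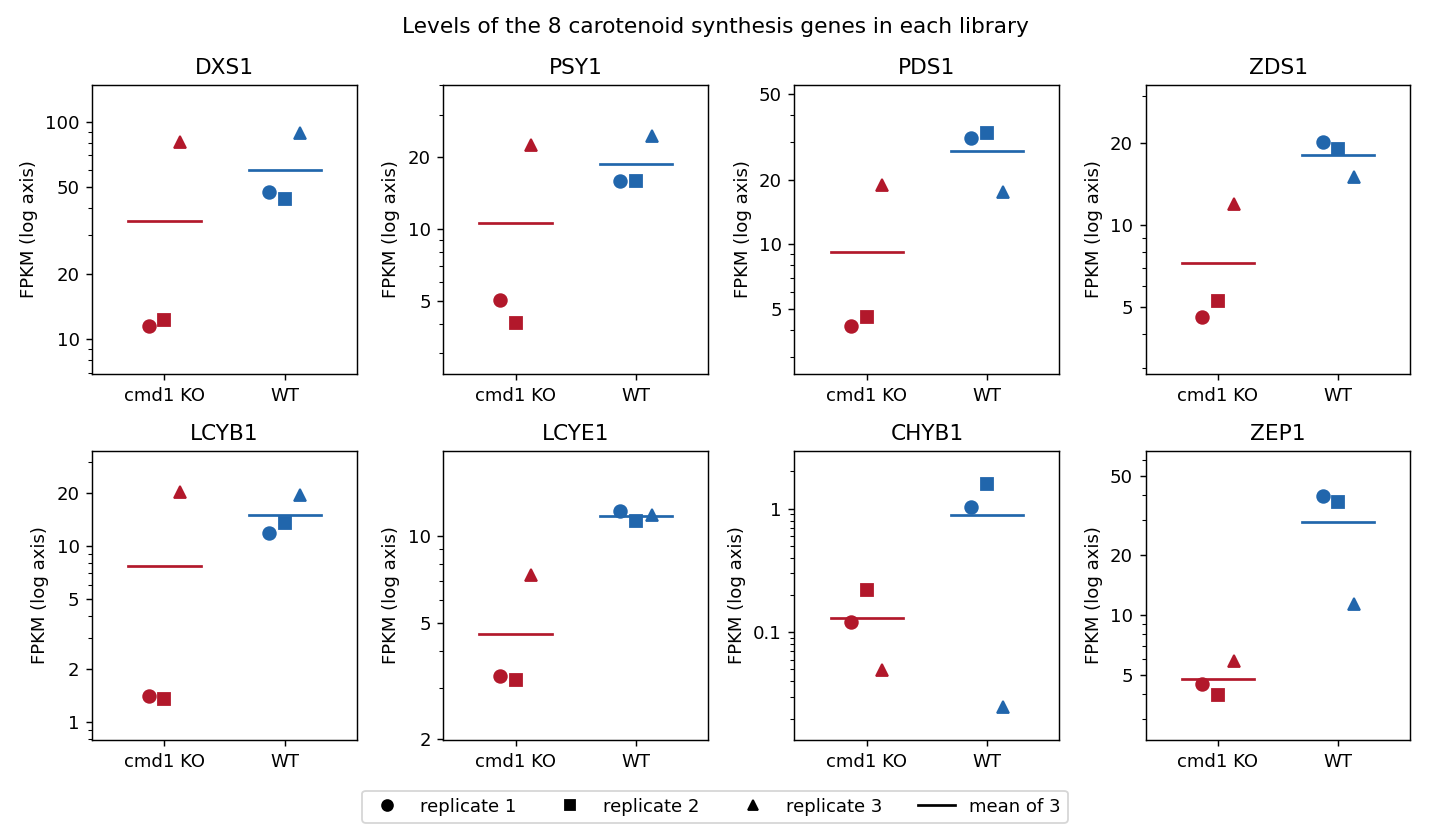
FPKM (log axis) of each of the 8 genes in the 3 cmd1 KO libraries and the 3 WT libraries; markers show replicates 1, 2 and 3 and lines the mean of 3. In replicates 1 and 2 each gene was lower in cmd1 KO than in WT, whereas the replicate 3 libraries of PDS1 stood at 18.8 FPKM in cmd1 KO and 17.4 FPKM in WT.

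The genes of precursor supply and of entry into the pathway had like patterns. DXS1 (Cre07.g356350.v5.5, chromosome 7 from 6196830 to 6202396 in the v5.5 assembly) encodes deoxyxylulose phosphate synthase, the first enzyme of the precursor pathway, and had the highest level of the 8 genes in all 6 libraries. It stood at 11.5, 12.2 and 81.1 FPKM in cmd1 KO replicates 1 to 3, against 47.7, 44.2 and 88.9 FPKM in WT replicates 1, 2 and 3. Replicate 3 was the highest library of each genotype, so the genotypes overlapped, with means of 34.9 ± 40.0 FPKM in cmd1 KO and 60.3 ± 24.8 FPKM in WT (SD, n = 3 each). PSY1 (Cre02.g095092.v5.5, chromosome 2 from 3336147 to 3340314) encodes phytoene synthase, which makes the first carotenoid and is often the rate-limiting step in plants. It stood at 5.03, 4.03 and 22.5 FPKM in cmd1 KO, against 15.9, 15.9 and 24.5 FPKM in WT. The pattern was that of DXS1, low in cmd1 KO replicates 1 and 2 and highest in replicate 3 of both genotypes.

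The 2 desaturases that turn phytoene into lycopene had like patterns in FPKM. PDS1 (Cre12.g509650.v5.5, chromosome 12 from 2063636 to 2067715) encodes phytoene desaturase, and stood at 4.17, 4.62 and 18.8 FPKM in cmd1 KO, against 31.1, 33.0 and 17.4 FPKM in WT. In WT, replicate 3 was the lowest library, and in cmd1 KO it was the highest. ZDS1 (Cre07.g314150.v5.5, chromosome 7 from 283372 to 289717) encodes zeta-carotene desaturase, which takes over from phytoene desaturase. It stood at 4.59, 5.26 and 12 FPKM in cmd1 KO, against 20.3, 19.2 and 15.1 FPKM in WT. In FPKM, as for PDS1, replicate 3 was the lowest WT library and the highest cmd1 KO library. The genotypes did not overlap for ZDS1 in FPKM, but they did after TMM scaling, where cmd1 KO replicate 2 reached 28.3 CPM (counts scaled to a common library total) and WT replicate 3 was at 23.3 CPM. With that scaling replicate 3 stayed the highest cmd1 KO library for PDS1 (19.7, 22.9 and 33.1 CPM in replicates 1 to 3). For ZDS1 it became the lowest (23.4, 28.3 and 22.9 CPM).

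The lycopene cyclases act where the pathway splits. LCYB1 (Cre04.g221550.v5.5, chromosome 4 from 2442597 to 2451157) encodes lycopene beta-cyclase, which serves both branches. It stood at 1.41, 1.36 and 20.1 FPKM in cmd1 KO, against 11.8, 13.5 and 19.4 FPKM in WT. Within cmd1 KO, replicate 3 was 14.6 times the mean of replicates 1 and 2, and within WT 1.54 times, or 5.30 times in cmd1 KO and 1.18 times in WT after TMM scaling. LCYE1 (Cre06.g267600.v5.5, chromosome 6 from 2357352 to 2364003) encodes lycopene epsilon-cyclase, which opens the lutein branch. It stood at 3.28, 3.18 and 7.30 FPKM in cmd1 KO, against 12.2, 11.2 and 11.7 FPKM in WT. Its WT level hardly varied in FPKM (11.7 ± 0.498 FPKM, SD, n = 3). After TMM scaling replicate 3 was the lowest library of each genotype, at 35.4, 32.9 and 26.2 CPM in WT and 24.2, 24.7 and 20.1 CPM in cmd1 KO. LCYE1 was the gene of the 8 whose genotypes did not overlap either in FPKM or after TMM scaling.

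The 2 genes of the zeaxanthin branch were far lower in WT replicate 3 than in WT replicates 1 and 2. CHYB1 (Cre04.g215050.v5.5, chromosome 4 from 1258008 to 1263154) encodes beta-carotene hydroxylase, which makes zeaxanthin. It had 18, 27 and 6 counts in cmd1 KO replicates 1 to 3, against 145, 204 and 3 counts in WT replicates 1, 2 and 3. The WT level was 1.04 FPKM in replicate 1 (exact 95% Poisson interval 0.874 to 1.22), 1.59 FPKM in replicate 2 (1.38 to 1.82) and 0.0247 FPKM in replicate 3 (0.0051 to 0.0722), and these intervals cover counting error only. In cmd1 KO it was 0.121, 0.218 and 0.0497 FPKM, so replicate 3 was the lowest library of both genotypes. The cmd1 KO interval of replicate 3 (0.0182 to 0.108) overlapped that of replicate 1 (0.0717 to 0.191) but not that of replicate 2 (0.144 to 0.317). ZEP1 (Cre02.g082550.v5.5, chromosome 2 from 1244277 to 1250969) encodes zeaxanthin epoxidase, which turns zeaxanthin back into violaxanthin. It stood at 4.49, 3.96 and 5.89 FPKM in cmd1 KO, against 39.8, 37.2 and 11.4 FPKM in WT. All 3 cmd1 KO libraries lay below all 3 WT libraries in FPKM, and WT replicate 3 lay 3.39-fold below the mean of WT replicates 1 and 2. After TMM scaling the genotypes overlapped, with cmd1 KO replicate 1 at 33.5 CPM and WT replicate 3 at 25.6 CPM. The highest cmd1 KO library in FPKM, replicate 3, was then the lowest of its genotype, at 16.4 CPM.

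Over all 6 libraries no carotenoid gene passed the test for a genotype difference. edgeR's quasi-likelihood test on the counts, with TMM factors and Benjamini-Hochberg adjustment over 10878 genes, called 0 of the 7 tested members at an adjusted p of 0.05, and 0% of all tested genes. At an unadjusted p of 0.05 it marked 1 of the 7 as lower, ZEP1, against 8.81% of all tested genes (958 lower, beside 994 higher). The log2 differences (cmd1 KO over WT) were all negative with TMM scaling: -1.64 for ZEP1 (SE 0.62, adjusted p = 0.264), -0.93 for PDS1, -0.62 for LCYB1, -0.47 for ZDS1, -0.45 for LCYE1, -0.21 for DXS1 and -0.18 for PSY1. The other adjusted p-values ran between 0.304 and 0.831. With library sizes alone the differences moved to -2.62 for ZEP1, -1.56 for PDS1, -0.97 for LCYB1 and -1.32 for ZDS1. They lay at -1.35 for LCYE1, -0.79 for DXS1 and -0.83 for PSY1. The median of all tested genes lay at -0.81 with that scaling, again with 0 of the 7 called, against 0 of 10878 tested genes. DESeq2 also called 0 of the 7 members, and 2.54% of all tested genes as lower. Without cmd1 KO replicate 3, edgeR called 1 of the 7, LCYB1 (log2 difference -1.90, adjusted p = 0.00695), against 20.7% of all tested genes called lower. Without cmd1 KO replicates 1 or 2 or WT replicate 3, the difference of DXS1 lay at 0.05, 0.00 and 0.00, and that of PSY1 at -0.06, 0.03 and -0.09. In FPKM, 3 of the 7 tested members had all cmd1 KO libraries below all WT libraries (ZDS1, LCYE1 and ZEP1), against 29.7% of all tested genes, and after TMM scaling 1 of the 7, LCYE1, against 13.6%. In replicates 1 and 2 alone, both cmd1 KO libraries lay below both WT libraries for all 8 genes, against 83.4% of all tested genes in FPKM and 45.2% after TMM scaling.

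Within replicates 1 and 2 all 7 tested members fell in cmd1 KO, in a comparison where 37.8% of all tested genes fell and 34.3% rose. The fit used 2 libraries against 2 with genotype as the only term. Its p-values rest on the spread between replicates 1 and 2 and hold none between cultures like replicate 3. The biological coefficient of variation was 0.130 in this fit, against 0.558 over all 6 libraries. The 7 genes formed a group of 3 with large differences and a group of 4 with small ones. LCYB1 fell by 1.82 on the log2 scale (SE 0.17, edgeR adjusted p = 1.73e-11), ZEP1 fell by 1.82 (SE 0.15, adjusted p = 1.74e-12) and PDS1 fell by 1.5 (SE 0.16, adjusted p = 4.14e-10). A fall of at least 1 on the log2 scale was called for 25.5% of all tested genes. The smaller differences were -0.63 for ZDS1 (SE 0.16, adjusted p = 0.000669), -0.59 for DXS1 (SE 0.15, adjusted p = 0.000589), -0.49 for LCYE1 (SE 0.16, adjusted p = 0.00647) and -0.44 for PSY1 (SE 0.16, adjusted p = 0.0132). PSY1 lost its call without cmd1 KO replicate 2 (adjusted p = 0.153), and PSY1 and LCYE1 lost theirs when no gene was filtered out (0.11 and 0.0649). In that last fit CHYB1 could be tested, and it fell by 1.46 (SE 0.39, edgeR adjusted p = 0.00226), against 31.9% of genes called lower. With library sizes alone all 7 members fell, between -1.81 for PSY1 and -3.19 for LCYB1, as did 78.8% of all tested genes. In that fit the median log2 difference of all tested genes was -1.44, and each of the 7 lay below it.

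**Figure D2:**
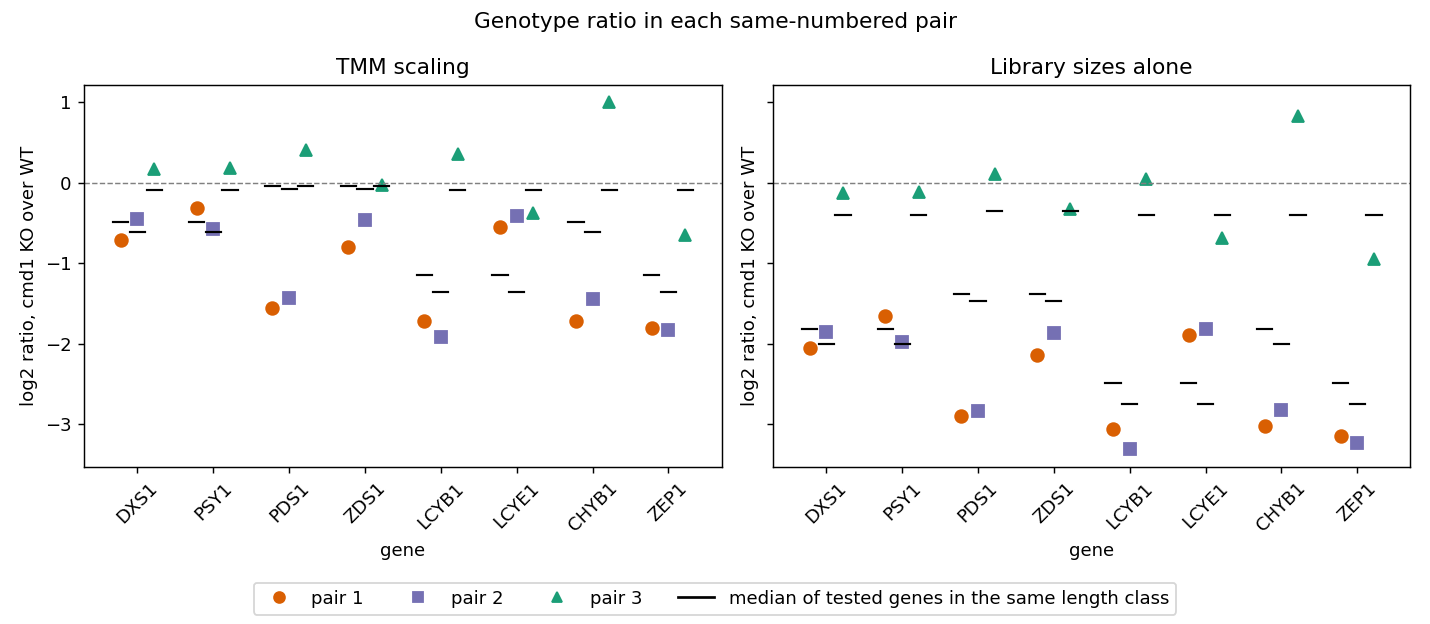
Log2 ratio of cmd1 KO over WT (vertical axis) for each of the 8 genes in same-numbered pairs 1, 2 and 3, with TMM scaling on the left and library sizes alone on the right; black bars give the median of the tested genes of similar length. PDS1 lay at -1.55 and -1.43 in pairs 1 and 2 and at 0.41 in pair 3 with TMM scaling, while its length class lay at -0.04, -0.07 and -0.05.

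Gene length moves with the genotype difference in replicates 1 and 2 of these libraries, and its part in the members' values was not tested. The tested genes were split into 5 equal classes by length. PDS1 (2430 bases) and ZDS1 (2631 bases) fell into the middle class, whose median log2 ratio with TMM scaling was -0.04 in pair 1 and -0.07 in pair 2. PDS1 lay at -1.55 and -1.43 and ZDS1 at -0.80 and -0.46 in these pairs. DXS1 (3212 bases) and PSY1 (3050 bases) fell into the fourth class, with medians of -0.48 and -0.61. DXS1 lay at -0.71 and -0.45 and PSY1 at -0.32 and -0.58, so both were close to genes of like length. LCYB1 (4182 bases), ZEP1 (3836 bases) and LCYE1 (3796 bases) fell into the longest class, with medians of -1.15 and -1.36. LCYB1 at -1.71 and -1.91 and ZEP1 at -1.80 and -1.83 lay below those medians, and LCYE1 at -0.55 and -0.41 lay above them. Over the 7 tested members the median log2 ratio was -0.80, -0.58 and 0.17 in pairs 1, 2 and 3, beside -0.06, -0.09 and -0.01 over all tested genes.

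In replicate 3 the picture by gene was different. With TMM scaling 3 of the 7 tested members lay below 0, against 51.3% of all tested genes, and with library sizes alone 5 of the 7, against 75.9%, since DXS1 and PSY1 changed sign between the scalings (0.17 and 0.18 with TMM, -0.13 and -0.12 without). PDS1 and LCYB1 lay above 0 under both scalings, at 0.41 and 0.35 with TMM and at 0.11 and 0.05 with library sizes alone. ZEP1 at -0.64 and LCYE1 at -0.38 were the lowest members with TMM scaling, ZEP1 at the 11.5th percentile of all tested genes of that pair. There is 1 library per genotype in replicate 3, so these values have no replicate check.

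The difference between the genotype effect in replicate 3 and that in replicates 1 and 2 was tested as an interaction in edgeR, which takes the spread from replicates 1 and 2. Replicate 3 has 1 library per genotype, so these p-values hold no spread between cultures like replicate 3. The biological coefficient of variation was 0.130 in this fit and 0.558 in the fit over all 6 libraries with genotype alone. The effect was more positive in replicate 3 for 4 of the 7 members, against 27.3% of all tested genes, and more negative for 0 of the 7, against 23.4%. In either direction the count was 4 of 7 members and 50.7% of all tested genes. The log2 interaction was 2.17 for LCYB1 (SE 0.28, edgeR adjusted p = 6.09e-07), 1.90 for PDS1 (SE 0.28, adjusted p = 3.67e-06), 1.17 for ZEP1 (SE 0.26, adjusted p = 0.000668) and 0.75 for DXS1 (SE 0.25, adjusted p = 0.0144). The call of DXS1 was lost without cmd1 KO replicate 1 (adjusted p = 0.0649). PSY1 at 0.62 (adjusted p = 0.0568) and ZDS1 at 0.61 (adjusted p = 0.0732) missed the threshold with TMM scaling. Both passed it when genes had to average 5 FPKM, at 0.91 (adjusted p = 0.00221) for PSY1 and 0.89 (adjusted p = 0.00309) for ZDS1. PSY1 also passed without cmd1 KO replicate 1 (adjusted p = 0.0336), and ZDS1 without cmd1 KO replicate 2 (adjusted p = 0.0358). LCYE1 had an interaction of 0.10 (SE 0.27, edgeR adjusted p = 0.779). With TMM scaling its genotype effect in replicate 3 was thus not detectably different from that in replicates 1 and 2. With library sizes alone all 7 were more positive in replicate 3, against 58.7% of all tested genes.

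Ratios between genes of the same library do not depend on scaling between libraries, and set the branches of the pathway against each other. Epsilon-cyclase over beta-cyclase (LCYE1 over LCYB1, in FPKM) was 2.33, 2.34 and 0.362 in cmd1 KO replicates 1 to 3, against 1.04, 0.829 and 0.604 in WT replicates 1, 2 and 3. The cmd1 KO ratio was higher in pairs 1 and 2, by 2.24-fold and 2.83-fold, and lower in pair 3, by 0.74 on the log2 scale. The 95% counting intervals (exact binomial), which cover counting error and not the spread between cultures, of cmd1 KO and WT did not overlap in any of the 3 pairs, and those of cmd1 KO replicates 1 and 2 ran from 2.02 to 2.69 and from 2.0 to 2.76. ZDS1 over PDS1 ran the same way, at 1.10, 1.14 and 0.639 in cmd1 KO, against 0.653, 0.581 and 0.864 in WT. Over 3 libraries against 3 neither ratio differed beyond the spread. The log2 means were 0.33 ± 1.55 in cmd1 KO and -0.31 ± 0.39 in WT for the cyclases (SD, n = 3 each, exact permutation test, two-sided, p = 0.6). For the desaturases they were -0.11 ± 0.47 in cmd1 KO and -0.54 ± 0.29 in WT (SD, n = 3 each, exact permutation test, two-sided, p = 0.3). Each p was 0.7 after Benjamini-Hochberg adjustment over the 5 ratios, and 3 libraries against 3 cannot give a p under 0.1.

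**Figure D3:**
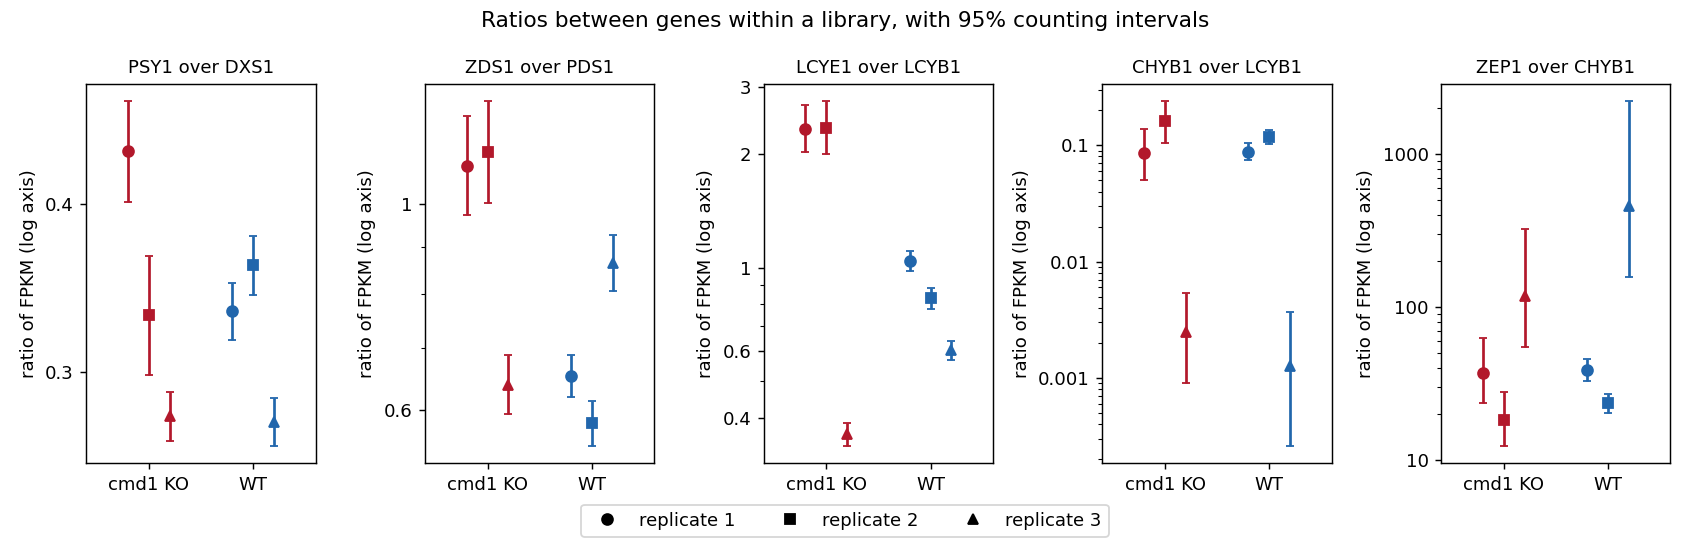
Ratio of the FPKM values of a pair of genes within each library (log axis) for 5 pairs of genes, with cmd1 KO left of WT; markers show replicates 1, 2 and 3 and bars the 95% counting intervals. LCYE1 over LCYB1 was 2.33 and 2.34 in cmd1 KO replicates 1 and 2 and 1.04 and 0.829 in WT replicates 1 and 2.

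Of the other 3 ratios, one was lower in cmd1 KO in all 3 pairs and 2 differed in sign between pairs. PSY1 over DXS1 was 0.438, 0.331 and 0.278 in cmd1 KO, against 0.333, 0.360 and 0.275 in WT, a log2 difference of 0.10 (exact permutation test, two-sided, p = 0.7 over 3 libraries each). Its pairs lay at 0.40, -0.12 and 0.01. CHYB1 over LCYB1 was 0.0859, 0.161 and 0.0025 in cmd1 KO, against 0.0881, 0.118 and 0.0013 in WT (p = 0.7 in the same exact test), with pairs at -0.04, 0.45 and 0.96. ZEP1 over CHYB1 was 37.1, 18.1 and 119 in cmd1 KO, against 38.5, 23.4 and 460 in WT (p = 0.6 in the same exact test). Its pairs lay at -0.05, -0.37 and -1.96, and the exact paired test gave p = 0.25, the smallest that 3 pairs allow. In replicates 1 and 2 the counting intervals of these last 2 ratios overlapped between the genotypes of each pair, and CHYB1 in replicate 3 rested on 6 counts in cmd1 KO and 3 in WT. The interval of ZEP1 over CHYB1 in replicate 3 ran accordingly from 54.3 to 324 in cmd1 KO and from 157 to 2234 in WT.

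The order of the genes by level was the same in both libraries of replicate 3 and differed between the genotypes in replicates 1 and 2. DXS1 was the highest and CHYB1 the lowest of the 8 in every library. The order in replicate 3 was DXS1, PSY1, LCYB1, PDS1, ZDS1, LCYE1, ZEP1 and CHYB1. In WT replicates 1 and 2 ZEP1 ranked 2, with 22.1% and 21.2% of the 8 genes' summed FPKM, and PDS1 ranked 3, with 17.3% and 18.8%. LCYB1 and LCYE1 changed places between these 2 WT libraries, so their order is within the spread. In cmd1 KO replicates 1 and 2 ZEP1 held 13% and 11.4% and ranked 4 and 5, close to PSY1, PDS1 and ZDS1, which lay between 11.6% and 15.1%. LCYB1 held 4.08% and 3.90% in the same cmd1 KO libraries, and 6.53% and 7.69% in WT replicates 1 and 2. DXS1 held 33.2%, 35.0% and 48.3% in cmd1 KO replicates 1 to 3, against 26.5%, 25.1% and 47.2% in WT replicates 1, 2 and 3.

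**Figure D4:**
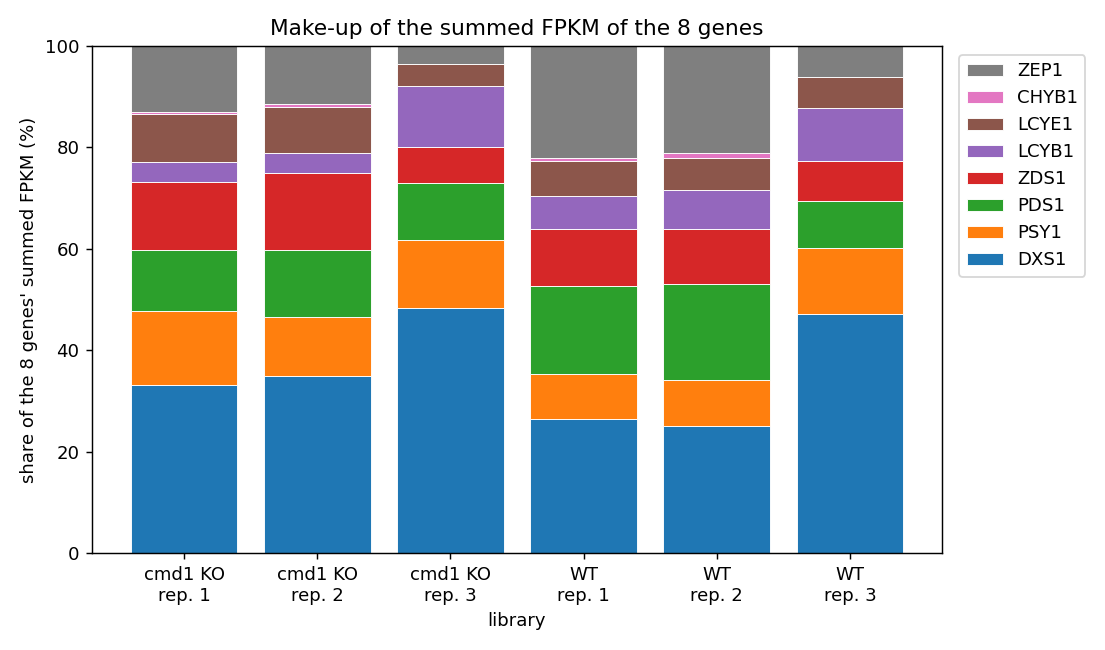
Share (%) of the summed FPKM of the 8 genes held by each gene, per library, with cmd1 KO left of WT. ZEP1 held 22.1% and 21.2% in WT replicates 1 and 2, and 3.51% and 6.04% in replicate 3 of cmd1 KO and WT.

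Likeness of pattern was measured as the root mean square difference of log2 CPM (TMM-scaled, each gene centred on its own mean) over the 6 libraries. Smaller values mean more alike. ZDS1 and LCYE1 were nearest to each other, at 0.154, and DXS1 and PSY1 were nearest to each other, at 0.228. LCYB1 was nearest to DXS1 (0.544), PDS1 to ZDS1 (0.385), and ZEP1 to PDS1 (0.684). CHYB1 was far from all other members, its nearest being ZEP1 at 1.40. Outside the 8 genes, Cre03.g179150 (chromosome 3 from 4850965 to 4855076) and Cre12.g502250 (chromosome 12 from 2847457 to 2850836) were the tested genes most like PSY1, at 0.0394 and 0.0637, where the median tested gene lay at 0.688. Cre03.g179150 stood at 1.55, 1.36 and 7.27 FPKM in cmd1 KO, against 5.10, 5.23 and 7.89 FPKM in WT.

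A list of 9 other identifiers, drawn up as further genes of the precursor and carotenoid pathway, was counted alongside. The files and the gene table do not annotate these identifiers, so they are given as a list only. All 9 were tested. Over all 6 libraries edgeR called 0 of the 9 at an adjusted p of 0.05, against 0% of all tested genes. Within replicates 1 and 2, 3 of the 9 rose, against 34.3% of all tested genes, and 1 fell, against 37.8%, with a median log2 difference of 0.14, beside -0.07 over all tested genes. The range of the 9 ran from -0.75 to 1.48. With library sizes alone 0 of the 9 rose and 8 fell, against 78.8% of all tested genes that fell.

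The authors' deposited table gave lower expression in cmd1 KO for all 8 genes, against 84.9% of all 17736 genes. The log2 fold changes in the authors' deposited table were -2.47 for ZEP1, -2.20 for LCYB1, -2.06 for CHYB1, -1.95 for PDS1, -1.47 for LCYE1, -1.46 for ZDS1, -1.37 for DXS1 and -1.26 for PSY1. Their unadjusted p-values in the authors' deposited table were under 0.05 for 7 of the 8, the exception being CHYB1 at 0.06. An edgeR fit that scaled by library totals only and gave replicate 3 its own term came within 0.000219 of the log2 fold changes in the authors' deposited table for the 7 tested members, so these carry no TMM scaling. With TMM and that term the differences lay at -1.43 for ZEP1, -1.12 for LCYB1, -0.87 for PDS1, -0.45 for LCYE1, -0.43 for ZDS1, -0.33 for DXS1 and -0.23 for PSY1. In that fit 0 of the 7 were called, against 0 of 10878 tested genes. In the same deposited table by the authors 51.4% of all 17736 genes were lower at that threshold, and the median log2 fold change was -1.22. Adjusted over all genes, 0 of the p-values of the authors' deposited table stayed under 0.05.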

How the data were processed

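The 6 libraries were grouped by genotype from the sample titles, whose replicates the labels call biological replicates. Per the submitters' processing notes, FastQC 0.11.5, TopHat2 and Cufflinks 2.0.0 were used. The counting tool, strand setting and genome build were not stated in the sources used here, nor how reads of overlapping or near-identical genes were counted. The deposited counts are whole read counts per gene. The deposited FPKM values equal the count over a whole-number length (100% of genes within 0.01 base) and the column total. The deposited log2 fold changes, F score and unadjusted p-value are the authors' own comparison, whose model no header states. Coordinates come from the RefSeq v5.5 gene table, in which 17733 of 17736 identifiers matched by locus tag.

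The members, the list of other pathway genes and the tests were chosen with earlier results of these data known. The rule for named genes took the 8 members and the 2 tested genes most like PSY1. edgeR 4.0.16 (glmQLFit, glmQLFTest, two-sided) was run on the counts in R 4.3.3, with TMM factors and Benjamini-Hochberg adjustment over the 10878 genes that averaged 1 FPKM or more. It was fitted to all 6 libraries, to replicates 1 and 2, and with an interaction for replicate 3. SEs are the log2 difference divided by the root of F. DESeq2 1.42.0, limma 3.58.1 on log2(FPKM + 1), other scalings and filters, a replicate block and leaving out each library were alternatives. Ratios were compared with exact permutation tests (scipy 1.17.1). Log2 CPM used a prior count of 1. The replicate numbers pair the samples: the labels' treatment protocol names each WT library with the mutant library of its number, and deviations from the group means correlated at 0.530, 0.427 and 0.547 in pairs 1, 2 and 3. Crossed pairs correlated at 0.479 (cmd1 KO 1 with WT 2) and 0.491 (cmd1 KO 2 with WT 1), so the correlations set replicate 3 apart and do not tell numbers 1 and 2 apart.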

Additional observations from a re-analysis of the deposited data

Results flagged for a closer look

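For 4 of the 7 tested genes the interaction test in edgeR set the genotype effect of replicate 3 apart from that of replicates 1 and 2. The log2 interaction was 0.75 for DXS1, 1.90 for PDS1, 2.17 for LCYB1 and 1.17 for ZEP1. Among all tested genes 50.7% had such a difference in either direction, which is near the share of 4 of 7. All 4 were more positive in replicate 3, a call made for 27.3% of all tested genes. More negative calls numbered 0 of 7, against 23.4%. Whether the members differ from the background was not tested. The labels name no batch for replicate 3, and 1 library per genotype gives no spread within it. Groups of 3 libraries are too small for a test of outlying samples.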

How the results depend on the processing

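Over all 6 libraries 0 of 7 members (8 with no filter) were called in every alternative run except without cmd1 KO replicate 3 (1 lower), so leaving out a library gave 0 to 1 called lower and 0 higher. Among all tested genes 20.7% were called lower in that run, and 2.54% with DESeq2. Within replicates 1 and 2 the count lower was 7, against 37.8% of all tested genes, and 6 of 8 with no filter, against 31.9%. Leaving out a library there leaves 1 library in a genotype. The log2 difference of PSY1, the smallest of the 7, then ran from -0.57 to -0.32. The count more positive in replicate 3 was 4, 6 with a mean of at least 5 FPKM and 6 at an adjusted p threshold of 0.1. It was 7 with library sizes alone, with limma on log2(FPKM + 1) and with limma on log2(FPKM + 0.1), where the FPKM carry no TMM scaling. With a library of replicates 1 or 2 left out, 1 library of its genotype stays in that group. The interaction then ran from 0.68 to 0.84 for DXS1 and from 1.80 to 2.02 for PDS1. It ran from 2.06 to 2.28 for LCYB1 and from 1.12 to 1.23 for ZEP1. Among all tested genes, 2969 of 10878 were called more positive in the main fit. With a mean of at least 5 FPKM 1492 of 4869 were called more positive, and 3333 of 10878 at the threshold of 0.1. With library sizes alone 6386 of 10878 were called. With limma on log2(FPKM + 1) and on log2(FPKM + 0.1) these were 6066 and 6269 of 10878. Without a library of replicate 3 the interaction cannot be estimated. The replicate block left the members' counts at 0, 7 and 4 and changed no call of a member. Among all 10878 tested genes these counts were 0, 4066 and 2929. Members without overlap numbered 3 in FPKM, against 29.7% of all tested genes, and 1 after TMM scaling, against 13.6%. In replicates 1 and 2 alone they numbered 8, against 83.4% of all tested genes in FPKM and 45.2% after TMM scaling. The counts after TMM scaling and in replicates 1 and 2 alone were both chosen after seeing the data. Leaving out a library turned the sign of DXS1 over the 6 libraries (-0.80 to 0.047) and of PSY1 (-0.52 to 0.028). It also turned the log2 differences of the ratios PSY1 over DXS1 (-0.082 to 0.25), CHYB1 over LCYB1 (-1.65 to 2.32) and ZEP1 over CHYB1 (-1.63 to 0.52), while LCYE1 over LCYB1 ran from 0.19 to 1.54 and ZDS1 over PDS1 from 0.28 to 0.70. The paired exact test of the ratios (replicate block) gave p between 0.25, the smallest that 3 pairs allow, and 0.75. With no filter and a mean of at least 5 FPKM, PSY1 within replicates 1 and 2 lay at -0.31 and -0.90. Depth limits CHYB1 in replicate 3.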
